A study of Rattus norvegicus with 4 samples.

Results

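INS-1 cells, an insulin-secreting line from a rat insulinoma, were compared after 16 h with 10 µM forskolin and after 16 h with the solvent DMSO alone (vehicle). Both groups grew in RPMI with 10% serum, the line comes from NEDH rats, and each group is 1 Affymetrix rat gene 1.0 ST array, so 2 of the 4 arrays of the study carry the comparison. The other arrays, vehicle and 10 µM forskolin at 2 h, are given beside it. The members are the 18645 named genes on the arrays, of which 9323 reached a signal filter and are called kept. With 1 array a side there is no replicate spread and no p-value. A gene was called higher or lower by size alone, when it was kept and its log2 signals at 16 h differed by at least 1, which is 2-fold. That gave 217 genes higher and 188 genes lower, or 2.33% and 2.02% of the kept genes and 1.16% and 1.01% of all named genes.

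Forskolin activates adenylyl cyclase and so raises cAMP, the second messenger through which glucagon-like peptide 1 and related hormones amplify insulin secretion in beta cells. cAMP activates protein kinase A, which phosphorylates the transcription factor CREB on cAMP response elements, and the exchange factors called Epac. The first genes to respond encode transcription factors and feedback proteins, while a stimulus of many hours also reaches genes that depend on proteins made in the meantime.

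All values below are log2 signals of the authors' RMA summary, or differences of them, forskolin minus vehicle, unless a fold is named. For scale, the difference between the vehicle arrays of 16 h and 2 h, which are separate samples at different times, had an SD of 0.25 over the kept genes, and the forskolin difference at 16 h had an SD of 0.46. The median difference at 16 h was 0.02 over kept genes and 0 over all named genes, and 85.5% of kept genes lay within 1.5-fold. For 547 genes with 2 probe sets above the filter, the 16 h differences of the pair differed with an SD of 0.27. Of 19 called genes among them 14 were also past 2-fold by the second probe set. Both probe sets read the same RNA on the same arrays, and some pairs hold identical signals. The called gene RGD1564763 is an example, with 9.19 and 8.12 in both. These pairs therefore do not measure replicate error, and the agreement of identical pairs was fixed in advance. Negative control probe sets give a less favourable view of the precision. Of 309 controls that reached the filter, 20 lay past 2-fold on the higher side (6.47%) and 34 on the lower side, larger shares than those of the genes, and 38 of these 54 had a mean 16 h signal below 5. On the lower side the controls exceeded the genes at brighter signals too, with 9 of 137 controls (6.57%) beside 1.96% of kept genes at signals of 5 to 7 and 4 of 40 controls beside 1.39% at 7 and above. On the higher side they did not, with 3 of 137 controls (2.19%) beside 2.30% of genes and 0 of 40 beside 1.83%. A 16 h signal below the upper quartile of the controls, 4.44 on the vehicle array or 4.37 on the forskolin array, is called control level here, and a fold from such a signal is not resolved. This mark bears on dim genes only, and the excess of controls on the lower side at brighter signals remains beside every lower call. By that mark 166 of the higher genes and 142 of the lower genes were above it on both arrays.

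The arrays carried the beta-cell line they are labelled as. Ins1 was 13.32 with vehicle and 13.24 with forskolin, Ins2 was 12.31 and 12.08, and the amylin gene Iapp was 11.56 and 11.92. Of 21 measured beta-cell markers 20 were kept, Ucn3 being at control level (2.99 and 3.05), and Pdx1 had no named probe set. None of the 13 measured macrophage and leukocyte markers was kept, with a highest signal of 3.84 at 16 h. Of 13 fibroblast and endothelial markers Thy1 (8.14 and 7.98) and Esam (7.26 and 7.20) were kept, and Col1a1, Col1a2, Dcn, Cdh5 and Vwf were not. Among 18 exocrine and duct markers 3 were kept, all with a higher forskolin signal. They include Ctrb1, a chymotrypsinogen gene, at 6.32 and 7.37 and Krt7 at 8.22 and 8.36, while Prss1, Amy2a3, Cpa1 and Cel lay near 2 to 4. The glucagon gene Gcg had the highest signals of the other islet markers, 11.95 and 12.56, while Sst, Ppy, Pyy and Ghrl lay below 4. Actb (11.34 and 11.35) and Gapdh (12.96 and 13.12) were close on the arrays, and none of 72 ribosomal protein genes or 23 housekeeping genes was called.

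**Figure D1:**
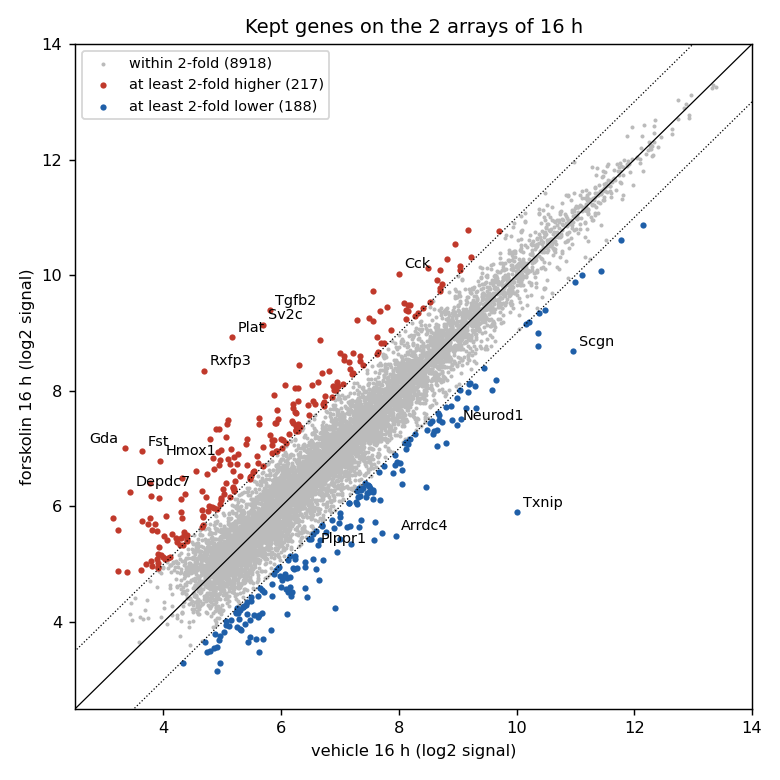
Log2 signal with forskolin at 16 h (y axis) against log2 signal with vehicle at 16 h (x axis) for the 9323 kept genes, 1 array a side. The solid line marks equal signals and the dotted lines 2-fold. The 217 higher genes are red and the 188 lower genes blue, and Plat, Gda, Rxfp3, Tgfb2 and Sv2c above and Txnip below lie farthest from the lines.

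The higher side was led by Plat, Gda, Rxfp3, Tgfb2 and Sv2c. Plat, which encodes tissue plasminogen activator, a secreted protease, had signals of 4.49 and 6.71 at 2 h (vehicle, then forskolin) and of 5.16 and 8.93 at 16 h, 13.6-fold higher at the later time. Rxfp3, the receptor gene for the neuropeptide relaxin-3, had 4.52 and 8.13 at 2 h and 4.70 and 8.35 at 16 h, a 12.6-fold difference. Tgfb2, a TGF-beta ligand gene, had 5.65 and 7.96 at 2 h and 5.81 and 9.40 at 16 h, which is 12.1-fold. For these 3 genes both forskolin arrays stood above both vehicle arrays, and the signal at 16 h was the highest of the 4.

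Sv2c, which encodes a synaptic vesicle glycoprotein, had 5.69 with vehicle and 9.15 with forskolin at 16 h, a difference of 3.46, after 5.45 and 8.14 at 2 h. Fst, the gene for the activin-binding protein follistatin, had 3.63 and 6.95 (9.99-fold), below its 2 h forskolin signal of 7.59. Gda, guanine deaminase of purine breakdown, showed a purely late difference, with 2.97 and 3.09 at 2 h and 3.36 and 7.01 at 16 h (12.6-fold). The vehicle signals of Gda and Fst were at control level, so their folds rest on a base that the arrays do not resolve. The same holds for Hmox1, haem oxygenase (3.94 and 6.79), Depdc7 (3.43 and 6.26), the Eph receptor kinase gene Epha5 (3.14 and 5.80) and the cyclin D1 gene Ccnd1 (3.77 and 6.40).

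The promoter of Rxfp3 is printed because this gene held about the same difference at both times and has an entry in the RefSeq promoter table (GRCr8), which runs from 250 bases before to 50 after the start site. It held TGACG, the core of a cAMP response element, once when read on either strand, at position -173 from the start site, in capitals (here as its reverse complement). The sequence lies at chr2:61731757-61732056 on the minus strand.
Rxfp3: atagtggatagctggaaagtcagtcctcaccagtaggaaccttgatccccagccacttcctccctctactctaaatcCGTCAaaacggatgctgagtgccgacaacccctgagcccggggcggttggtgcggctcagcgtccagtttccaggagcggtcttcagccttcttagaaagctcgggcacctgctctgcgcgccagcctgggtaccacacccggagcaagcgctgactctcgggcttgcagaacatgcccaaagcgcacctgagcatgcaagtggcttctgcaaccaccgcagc
TGACG stood in 34.8% of the 7390 kept genes with an entry, in 33.1% of the 169 higher genes and in 15.5% of the 129 lower genes. A match is a description of letters and not a site.

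The lower side was led by Txnip, which encodes an arrestin-like inhibitor of thioredoxin and of glucose uptake. Its signals were 10.05 and 6.44 at 2 h and 10.01 and 5.90 at 16 h, so the vehicle arrays were close to each other and forskolin was 17.3-fold lower at 16 h. Arrdc4, a paralogous arrestin domain gene, had 8.17 and 6.26 at 2 h and 7.95 and 5.49 at 16 h, 5.48-fold lower. The other arrestin domain gene Arrdc3 went the opposite way, 8.08 with vehicle and 9.53 with forskolin at 16 h (2.72-fold higher). Scgn, the calcium-binding protein secretagogin of neuroendocrine cells, was lower at 16 h alone, with 11.01 and 10.82 at 2 h and 10.96 and 8.69 at 16 h (4.83-fold).

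The promoter of Arrdc4 is shown because Arrdc4 was the lowest gene after Txnip among known symbols and its promoter holds an E-box. This motif, CACGTG, the core letters bound by MondoA and ChREBP among other factors, is in capitals at position -177. The sequence is chr1:131793376-131793675 of GRCr8, minus strand, from RefSeq.
Arrdc4: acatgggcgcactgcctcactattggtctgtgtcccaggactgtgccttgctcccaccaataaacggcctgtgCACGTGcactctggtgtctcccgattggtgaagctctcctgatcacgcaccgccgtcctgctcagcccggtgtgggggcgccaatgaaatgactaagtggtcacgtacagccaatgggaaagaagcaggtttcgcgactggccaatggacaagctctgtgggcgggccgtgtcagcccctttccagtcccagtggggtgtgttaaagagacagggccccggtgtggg
CACGTG was found in 10.4% of the promoters of kept genes, in 12.4% of those of lower genes and in 8.28% of those of higher genes. Of the 10 highest and 10 lowest genes 13 had a promoter entry and were read, and Txnip was among the 7 without one. Of the 13, the promoters of Tgfb2 on the higher side and of Lrrc39 on the lower side also held CACGTG.

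Next among the lower genes were Plppr1, a phospholipid phosphatase-related membrane protein of neurons (7.71 and 5.55 at 16 h, 4.46-fold), and Arg1, arginase (8.46 and 6.34, 4.35-fold). Selenop, the secreted selenium carrier, had 5.63 and 3.48 (4.43-fold) with its forskolin signal at control level. Rgs16, a GTPase-activating protein for G proteins, had 7.38 and 7.75 at 2 h and 7.19 and 5.35 at 16 h (3.58-fold lower). The monoamine oxidase gene Maob had 8.80 and 7.10 (3.25-fold). In Plppr1, Arg1, Rgs16 and Maob the 3 other arrays lay within 0.6 of each other and the forskolin array of 16 h stood apart below.

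**Figure D2:**
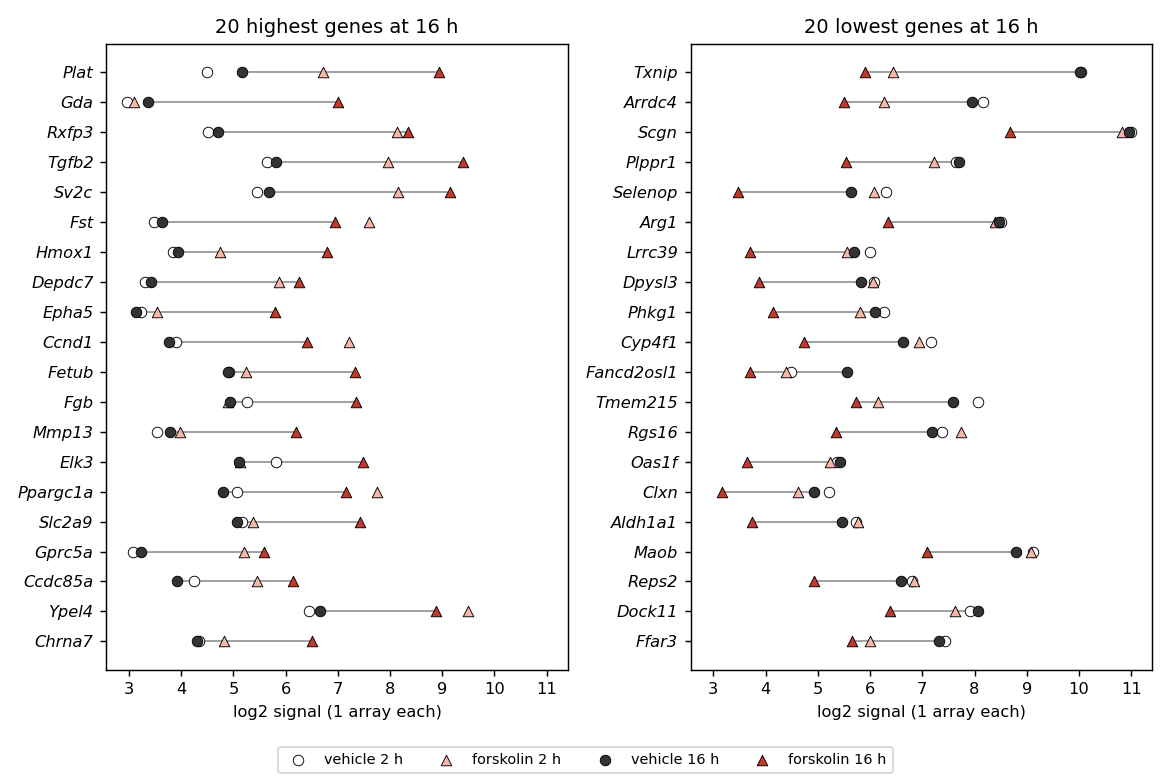
Log2 signal (x axis) on each of the 4 arrays for 20 genes at either end of the 16 h differences among kept genes with known symbols (y axis). Circles are vehicle and triangles forskolin, open or pale at 2 h and filled dark at 16 h, and a line joins the arrays of 16 h. Gda, Epha5, Fetub, Fgb and Scgn differ at 16 h with little difference at 2 h, while Rxfp3 and Txnip differ at both.

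Most of the called genes were not past 2-fold in the same direction at 2 h. The matching shares of all kept genes at 2 h are not given here, so the counts below describe the called genes alone. Of the 217 higher genes 61 were also at least 2-fold higher at 2 h and 125 were within 1.5-fold there. Of the 188 lower genes 21 were also at least 2-fold lower at 2 h and 146 were within 1.5-fold. None of the higher genes and 1 of the lower genes was past 2-fold in the opposite direction at 2 h: Slc26a2, a sulphate transporter gene, had 8.89 and 10.27 at 2 h and 8.60 and 7.31 at 16 h. Measured against the 2 h vehicle array in place of the 16 h one, 170 of the higher and 145 of the lower genes were again past 2-fold. Both comparisons use the same forskolin array of 16 h, so an error on that array would pass both. The vehicle arrays themselves differed by at least 2-fold in 8 of the 188 lower genes and 0 of the 217 higher genes. Over all 9323 kept genes the 16 h vehicle array was at least 2-fold above the 2 h one in 8 and below it in 3. Such genes were concentrated among the lower calls. The 16 h vehicle signal enters both differences with opposite sign, so such a concentration can follow from arithmetic alone.

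**Figure D3:**
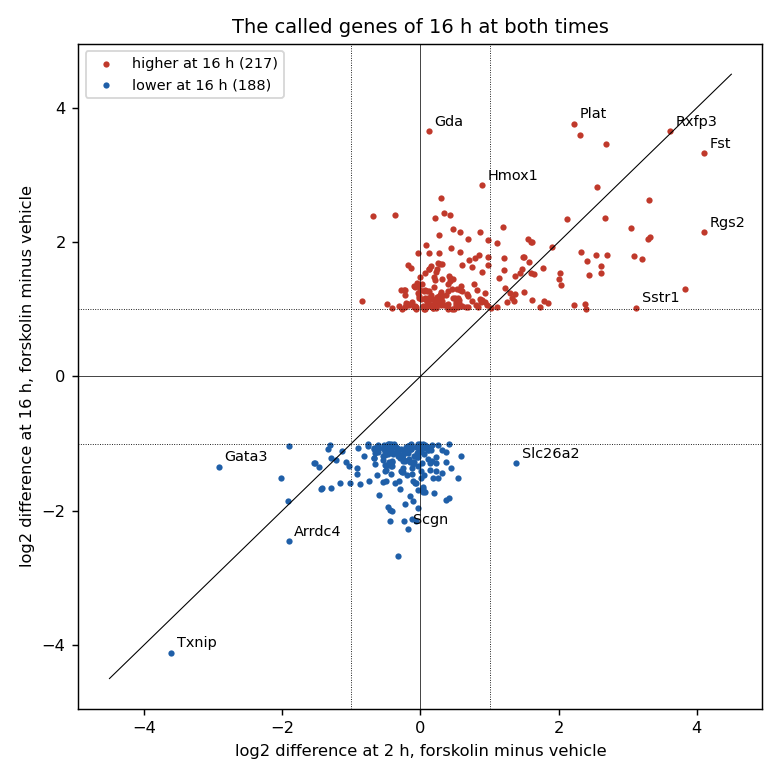
Log2 difference at 16 h (y axis) against log2 difference at 2 h (x axis), forskolin minus vehicle of the same time, for the 217 higher (red) and 188 lower (blue) genes. The solid line marks equal differences and the dotted lines 2-fold. Most points sit near 0 on the x axis, Txnip and Rxfp3 lie close to the line, and Slc26a2 is alone at lower right.

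Genes were then read in lists by function, which overlap, so that a gene such as Hmox1 or Vldlr counts in several. The lists were chosen with earlier results of these arrays known, and a gene could be kept through a forskolin array alone. Ranks of lists by their share of kept members are therefore descriptions. The list of genes known to be induced by cAMP through CREB had the highest share of higher calls at 16 h among lists with at least 15 kept members. Of its 37 measured genes 13 were at least 2-fold higher and 0 lower, with a median difference of 0.53 over all 37 beside 0 over all named genes. Plat belongs to them. The transcriptional coactivator gene Ppargc1a had 4.79 and 7.16 at 16 h after 5.08 and 7.75 at 2 h. Rgs2, a G protein brake, had 5.06 and 7.20 after 5.17 and 9.28, and the substance P precursor gene Tac1 had 4.55 and 6.62 after 4.42 and 7.75. Sik1, a kinase that restrains CREB coactivators, had 6.07 and 8.11, and the orphan receptor genes Nr4a2 (4.85 and 6.65), Nr4a1 (6.81 and 8.35) and Nr4a3 (3.70 and 4.996) were all past 2-fold, Nr4a3 from a vehicle signal at control level. In each of these genes apart from Plat the forskolin signal at 16 h was below that at 2 h.

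Among 50 measured components of the cAMP pathway itself 3 were called, and these were higher. They were 9.68% of the 31 kept, beside 2.33% of all kept genes. Pkib, an inhibitor peptide of protein kinase A, had 5.84 and 7.06 (2.33-fold), Crem, which encodes activators and repressors of cAMP response elements, 7.05 and 8.12 (2.10-fold), and the phosphodiesterase gene Pde10a 6.72 and 7.73 (2.01-fold). Pkib and Pde10a were within 1.5-fold at 2 h. Against the 2 h vehicle array Pkib (1.11) was again past 2-fold, and Crem (0.93) and Pde10a (0.79) were not. The median of the 50 was 0, with 14 of 31 kept members above 0 and 17 below. Among 47 regulators of G protein signalling, of which 12 of 34 kept lay above 0 and 22 below, Rgs2 and the beta-arrestin gene Arrb1 (4.82 and 5.98) were higher, and Rgs16 and the receptor kinase gene Grk5 (5.23 and 4.18, at control level with forskolin) lower.

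The full cAMP response element TGACGTCA, which is its own reverse complement, was found in 8 of the 169 higher genes with a promoter entry (4.73%), in 3.60% of kept genes and in 2.33% of lower genes. Among the 47 higher genes that were also 2-fold higher at 2 h the share was 10.6% (5 promoters), and TGACG was in 48.9% (23 promoters). Among the 122 that were below 2-fold at 2 h the shares were 2.46% (3 promoters) and 27.0% (33 promoters), both under those of kept genes. The shares of the full element thus rest on few promoters, and their difference was not tested. The windows of 4 higher genes are printed with 12 bases on either side of the element in capitals, all from RefSeq GRCr8 in the direction of the gene. They were chosen after the values were seen, to show the element in genes of different function. Ppargc1a holds it at position -181 (chr14:63634115-63634146, plus strand), the granule peptide gene Vgf at -90 (chr12:25277091-25277122, minus), the peptide gene Cartpt at -142 (chr2:32991358-32991389, minus) and the Eph receptor gene Epha2, whose vehicle signal was at control level, at -52 (chr5:158888565-158888596, plus).
Ppargc1a: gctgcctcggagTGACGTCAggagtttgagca
Vgf: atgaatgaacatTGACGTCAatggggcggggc
Cartpt: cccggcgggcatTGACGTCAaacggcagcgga
Epha2: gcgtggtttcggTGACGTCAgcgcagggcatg

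Receptors of the beta cell were called in both directions. Of 56 measured G protein-coupled receptor genes 6 were at least 2-fold lower and 3 higher, and 12 of the 25 kept lay above 0 and 13 below. The median of the kept ones was -0.19, and 0.02 under a stricter signal filter. The free fatty acid receptor genes Ffar1 (9.31 and 7.71, 3.04-fold lower) and Ffar3 (7.32 and 5.65, 3.18-fold lower) were the lowest. They were followed by the ADP receptor gene P2ry1 (7.45 and 6.16), the lipid amide receptor gene Gpr119 (7.31 and 6.17), the PACAP receptor gene Adcyap1r1 (7.49 and 6.35) and the adenosine receptor gene Adora2b (5.87 and 4.83). FFAR1, GPR119, PACAP and ADP receptors are known as routes by which nutrients and transmitters stimulate insulin secretion. On the higher side were Rxfp3, the orphan receptor gene Gpr158 (5.93 and 6.97) and the somatostatin receptor gene Sstr1 (4.11 and 5.13), the last from control level and far below its 2 h forskolin signal of 7.74. Outside this list the oxytocin receptor gene Oxtr was 3.58-fold higher (4.97 and 6.81) with 5.09 and 5.21 at 2 h.

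Several transcription factors were lower, factors of beta-cell identity among them. Neurod1, which drives insulin gene transcription, had 9.33 and 8.18 at 2 h and 8.99 and 7.41 at 16 h, 2.996-fold lower. Rfx6, a factor needed for islet development, had 8.77 and 7.76 at 2 h and 8.64 and 7.05 at 16 h (3.02-fold lower). Sox4 (7.46 and 6.24) and Gata3 (6.11 and 4.76) were also past 2-fold. For Neurod1 and Rfx6 both forskolin arrays were below both vehicle arrays, and the later array was the lowest.

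A list named for beta-cell identity holds 41 measured factors, not all of them specific to beta cells. Of these 4 were lower and 1 higher. The higher one was Bhlha15, also called Mist1, a factor of secretory cells (4.33 and 5.33, vehicle at control level). Of 27 kept factors 18 had a difference below 0. Mafa, an activator of insulin transcription, was above vehicle at 2 h (6.64 and 7.95) and below it at 16 h (6.72 and 6.20), the latter difference, -0.52, short of 2-fold. Nkx6-1 had 4.87 and 4.04, short of 2-fold and at control level with forskolin. Of the 20 kept beta-cell markers 16 lay below 0 with a median of -0.34, among them the glucose transporter gene Slc2a2 (11.43 and 10.88), the KATP channel genes Abcc8 (8.42 and 7.85) and Kcnj11 (8.98 and 8.45) and Isl1 (9.20 and 8.54), and only Neurod1 was called. These markers were also lower on the 16 h than on the 2 h vehicle array, with a median of -0.22. In RNA from a whole culture fewer cells with a transcript and less transcript per cell cannot be told apart.

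Secretory peptides and vesicle proteins changed in both directions. Cck, the cholecystokinin precursor gene, had 7.996 and 10.03 (4.08-fold higher) after 7.83 and 8.80 at 2 h. Tac1, Vgf (8.82 and 10.28) and Cartpt (5.84 and 7.16) also were higher. Scgn, the vesicle priming factor gene Cadps (5.71 and 4.52) and the oxidoreductase gene Ero1b (7.42 and 6.40) were lower, so that 4 of 54 measured hormone and granule genes were higher and 3 lower. Of 72 exocytosis and vesicle genes 4 were higher, Sv2c, the calcium sensors Doc2b (3.62 and 4.91, vehicle at control level) and Syt4 (8.65 and 9.92) and the membrane fusion protein gene Snap25 (8.69 and 9.73), and 1 lower, Rab3b (6.55 and 5.10).

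Genes of the endoplasmic reticulum shifted up together by small amounts. Of 52 measured chaperone and unfolded protein response genes 6 were past 2-fold higher and 1 lower, and their median was 0.49. Sdf2l1, a chaperone cofactor, had 7.56 and 9.21 (3.15-fold), the proline isomerase gene Fkbp14 3.38 and 4.86 from control level, and the stress sensor gene Ern1 (IRE1) 5.03 and 6.22. Selenos (6.89 and 8.08), Dnajc3 (8.12 and 9.25) and Creld2 (9.71 and 10.76) were the others. Of the 49 kept, 47 had a difference above 0, where 52.8% of all kept genes did. Ero1b was the member called lower. At 2 h the same genes had a median of 0.

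The genes for translocation into the endoplasmic reticulum, glycosylation and transport to the Golgi had a median of 0.40 over 77 measured, with 4 higher and 0 lower. Gmppb (5.70 and 7.02) and Pgm3 (5.88 and 7.15), which make sugar donors for glycosylation, the retrieval receptor gene Kdelr3 (4.36 and 5.56, from control level) and the transcription factor gene Creb3l2 (6.14 and 7.25) were the ones past 2-fold. Of 76 kept members 70 lay above 0. This list too had a median of 0.01 at 2 h among its kept members. Since the shift of a typical member, about 0.4, is less than 2 SDs of the difference between the vehicle arrays, single members short of 2-fold are not described as different.

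The ER stress element, CCAAT followed after 9 bases by CCACG on either strand, was found in 9 of the 40 promoters of the chaperone list (22.5%), in 0.189% of kept genes and in 21 of the 27457 promoters of the table. It is known as a binding sequence of NF-Y with ATF6 or XBP1, and several of these genes are those from which it was defined. The windows of Dnajc3 and Creld2, both called higher, of Hspa5 (BiP), short of 2-fold at 12.74 and 13.02, and of Ero1b, the member called lower, are printed with the element in capitals. They were chosen after the values were seen, and show that the letters stood in members of either direction. Positions are -133 for Dnajc3 (chr15:102432522-102432564, plus strand), -145 for Creld2 (chr7:121789227-121789269, plus), -43 for Hspa5 (chr3:38452961-38453003, plus) and -224 for Ero1b (chr17:92941446-92941488, plus). Creld2 and Ero1b carry it as the reverse complement.
Dnajc3: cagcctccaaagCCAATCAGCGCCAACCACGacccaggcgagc
Creld2: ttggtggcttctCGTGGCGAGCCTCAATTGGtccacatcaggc
Hspa5: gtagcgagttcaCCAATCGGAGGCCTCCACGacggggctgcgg
Ero1b: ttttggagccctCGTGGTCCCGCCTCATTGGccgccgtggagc

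Of 49 measured genes known as targets of hypoxia-inducible factors 8 were past 2-fold higher and 0 lower, with a median of 0.27, and 31 of 36 kept lay above 0. Besides Hmox1 they were the mitophagy receptor gene Bnip3 (8.15 and 9.48), the glucose transporter gene Slc2a1 (7.63 and 8.93), the collagen hydroxylase gene P4ha1 (8.20 and 9.48), Epas1, which encodes HIF-2 alpha (6.74 and 7.90), the oxygen sensor gene Egln3 (4.85 and 5.98), Vldlr (8.73 and 9.84) and the peptide gene Adm (3.91 and 4.93, from control level). Hif1a itself had 7.41 and 7.85 and Vegfa 8.56 and 8.82, both short of 2-fold. Egln3 had 5.58 on the 2 h vehicle array and 4.73 with forskolin, so against that array its late signal was 0.40 higher. The core ACGTG was in 56.7% of the 30 promoters of this list with an entry and in 27.4% of those of kept genes.

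Genes of glycolysis were called in both directions. Ldhb, a lactate dehydrogenase subunit, had 7.07 and 8.60 (2.89-fold higher), and the lactate and pyruvate carriers Slc16a7 (5.25 and 6.74) and Slc16a1 (5.22 and 6.45) were higher, as were the enolase gene Eno2 (8.16 and 9.38) and the phosphofructokinase gene Pfkp (8.40 and 9.44). Pklr, the pyruvate kinase of liver and beta cells that glucose induces, was lower (8.73 and 7.46). Low expression of monocarboxylate carriers is a known trait of beta cells. Altogether 6 of 57 measured genes were higher and 1 lower, and the median over the list was -0.01. No gene of 67 for oxidative phosphorylation was called, and their median was 0.10. In the citric acid cycle list 1 of 42 was called, the succinyl-CoA ligase gene Sucla2 (9.22 and 10.32), and Mcu, the pore of the mitochondrial calcium uniporter, was 3.15-fold higher (6.999 and 8.65).

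Stress and redox genes were mixed. Of 46 measured amino acid response and ATF4 target genes 4 were higher and 0 lower, with a median of 0.27: the cystine carrier gene Slc7a11 (4.84 and 6.84), the pseudokinase gene Trib3 (4.74 and 6.55), Atf3 (5.27 and 6.91) and Vldlr. Trib3 and Atf3 were higher still at 2 h with forskolin, at 6.73 and 7.39. Of 62 NRF2 target, glutathione and redox genes 4 were higher, Hmox1, Slc7a11, Arrdc3 and the quinone reductase gene Nqo1 (5.17 and 6.34), and 3 lower, Txnip, Arrdc4 and Selenop. Amino acid metabolism had 4 genes lower and 0 higher of 59: Arg1, Maob, the serine hydroxymethyltransferase gene Shmt1 (9.06 and 7.51) and the dopa decarboxylase gene Ddc (8.02 and 6.75). All 4 had 2 h forskolin signals within 0.31 of the 2 h vehicle.

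Solute carriers divided likewise, with 5 of 79 measured nutrient transporter genes higher and 4 lower. The urate and hexose carrier gene Slc2a9 had 5.07 and 7.43 (5.13-fold higher), and Slc7a11, Slc16a7, Slc16a1 and the bicarbonate carrier gene Slc4a7 (4.94 and 6.71) were the others. The cationic amino acid carrier gene Slc7a2 (9.58 and 8.01), Slc43a2 for large neutral amino acids (8.91 and 7.504), Slc16a10 for aromatic amino acids (8.69 and 7.503) and Slc26a2 were lower. Among lipid genes the acyltransferase genes Gpat3 (4.36 and 6.21) and Dgat2 (3.90 and 5.17), which act in triglyceride synthesis, were higher, both from control level, and the cholesterol exporter gene Abca1 was lower (7.89 and 6.57). Of 33 sterol genes 1 was higher, Hsd17b7 (4.92 and 5.96), and Abca1 was the 1 lower, with a list median of 0.21.

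**Figure D4:**
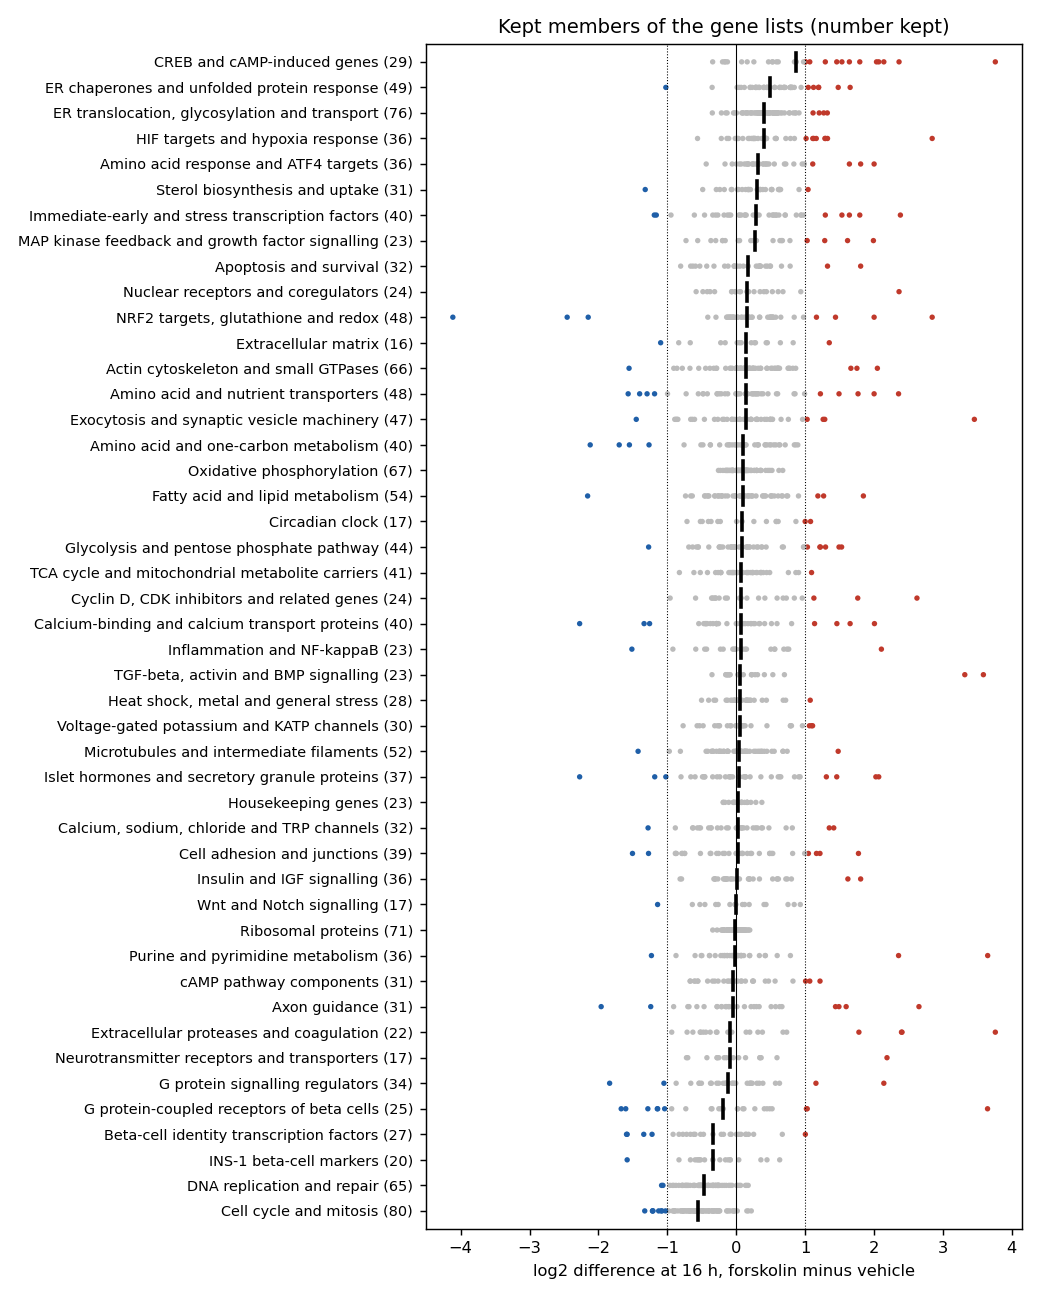
Log2 difference at 16 h, forskolin minus vehicle (x axis), of the kept members of each gene list with at least 15 of them (y axis, number kept in brackets). Points are genes, red and blue past 2-fold, and black bars are medians of the kept members. The CREB list has the highest median and the cell cycle list the lowest, and most lists centre near 0 with single genes far out on either side.

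Genes of cell division were lower together. Of 81 measured cell cycle and mitosis genes 8 were at least 2-fold lower and 0 higher, the median was -0.55, and 76 of 80 kept members lay below 0. The kinetochore genes Spc25 (8.57 and 7.25) and Spc24 (7.94 and 6.72), the checkpoint ATPase gene Trip13 (6.77 and 5.55), the mitotic kinase genes Pbk (9.30 and 8.09), Aurkb (8.53 and 7.44) and Melk (7.36 and 6.29) and the repressor genes E2f7 (7.01 and 5.88) and E2f8 (6.70 and 5.67) were the 8. At 2 h the kept members already had a median of -0.34. Of 67 DNA replication and repair genes 2 were lower, the polymerase subunit gene Pole2 (5.36 and 4.28, at control level with forskolin) and Fancd2 (7.67 and 6.60), and 0 higher. Their median was -0.47, and -0.16 at 2 h among the kept ones. Against the 2 h vehicle array neither Pole2 (-0.82) nor Fancd2 (-0.98) reached 2-fold. Of the 8 cell cycle calls Aurkb alone (-0.76) fell short against that array. Pcna, chosen as a familiar member after its value was seen, had 10.72 and 10.11.

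Of 29 measured genes in a list of D cyclins, cyclin-dependent kinase inhibitors and related genes 3 were at least 2-fold higher and 0 lower, with a median of 0.06, so most did not pass. Ccnd1 was 6.17-fold higher at 16 h with a vehicle signal at control level, and its forskolin signals were 7.21 at 2 h and 6.40 at 16 h. Cdkn1a, which encodes the kinase inhibitor p21, had 6.25 and 7.05 at 2 h and 6.29 and 8.05 at 16 h (3.401-fold higher). Plk3 was higher (6.26 and 7.38), and Cdkn1b, p27, had 8.22 and 9.18, short of 2-fold. Myc, a driver of growth, was lower at 16 h (7.502 and 6.31) after 7.55 and 8.13 at 2 h.

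Histone genes were the group with the largest lower shift among those examined, in a list drawn up by symbol after the values were seen. Of 37 measured 13 were at least 2-fold lower and 0 higher, and all 27 kept were below 0. Of the 21 classed by symbol as replication-dependent 12 were lower, with a median of -1.07. H1f1, a linker histone, had 12.14 and 10.87, Hist1h2bq 11.44 and 10.08, Hist3h2ba 10.37 and 8.78 and H4c14 10.37 and 9.002. At 2 h the kept histone genes had a median of 0.01. The replication-dependent ones differed between the vehicle arrays too, the later one being higher with a median of 0.28, and H4c14 by 0.65. Against the 2 h vehicle array, a comparison added after seeing the data, 4 of the 13 called histone genes, Hist3h2ba, Hist1h2bq, H1f1 and H2az2, were again past 2-fold and 9 were not, H4c14 (9.002 against 9.72) among them, so most of the calls of this group rest on the 16 h vehicle array. The nearest to no difference was Hist1h4b, at -0.19. Copies of a histone gene are nearly identical and can share probe signal, so they are not separate observations. The 10 kept genes classed by symbol as variants had a median of -0.62, beside -1.08 for the 17 kept genes classed as replication-dependent. They ran from H2az2 (8.12 and 6.99), the 1 called lower, through H1f10 (7.06 and 6.13) to H3f3b (11.75 and 11.60) and Macroh2a1 (10.15 and 10.07).

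The letters TTTGAA, known as the cell cycle genes homology region, stood in 57.6% of the 66 promoters of the cell cycle list, beside 10.9% of kept genes and 18.1% of the whole table. CCAAT was in 71.2% of them and in 38.3% of kept genes. The E2F letters TTTCCCGC stood in 26.4% of the 53 promoters of the replication list and in 2.34% of kept genes. Both lists hold textbook targets of these factors, so the shares describe the lists and not the response. The windows of Spc25, the lowest cell cycle member, and of Mcm7 and Hells from the replication list are printed with the letters in capitals, chosen after the values were seen. Spc25 has TTTGAA at -57 (chr3:74396758-74396787, minus strand), and TTTCCCGC is at -233 in Mcm7 as the reverse complement (chr12:22163392-22163423, minus) and at -29 in Hells (chr1:246114088-246114119, plus). The differences of Mcm7 and Hells, -0.70 and -0.63, were short of 2-fold.
Spc25: ggcgctccggagTTTGAAattgaaagtcgg
Mcm7: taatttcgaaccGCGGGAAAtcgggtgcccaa
Hells: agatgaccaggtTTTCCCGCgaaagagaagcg

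**Figure D5:**
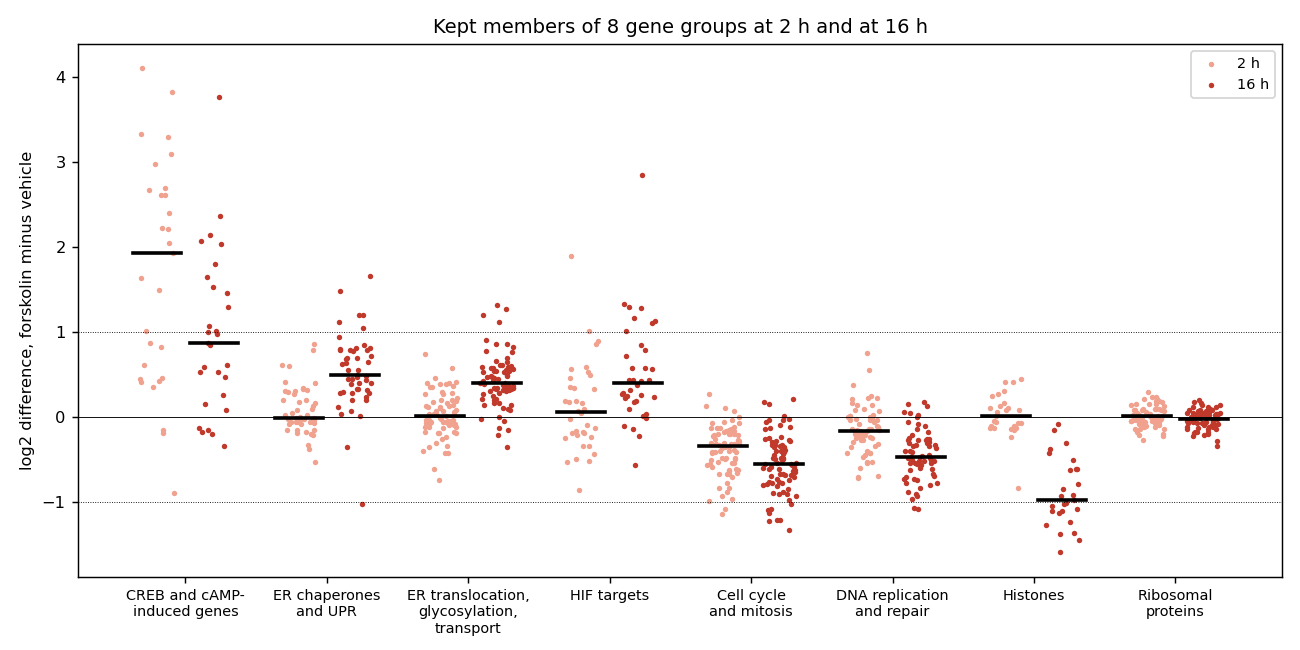
Log2 difference, forskolin minus vehicle of the same time (y axis), of kept members of 8 gene groups (x axis) at 2 h (pale) and 16 h (dark). Points are genes, black bars medians and dotted lines 2-fold. The CREB list is higher at both times with a lower median at 16 h, both endoplasmic reticulum lists and the histones are near 0 at 2 h and apart from it at 16 h, and ribosomal protein genes stay near 0.

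In the list of MAP kinase feedback and growth factor signalling 17.4% of the 23 kept genes were higher, beside 2.33% of all kept genes. Spry1, an inhibitor of receptor tyrosine kinase signalling, had 4.98 and 6.97 (3.98-fold), the MAP kinase phosphatase gene Dusp4 6.69 and 8.31, the neurotrophin receptor gene Ntrk2 5.02 and 6.30 and Errfi1, a feedback inhibitor of the EGF receptor, 7.64 and 8.67. These were the 4 called of 46 measured. The IGF-1 receptor gene Igf1r had 8.54 and 9.29 at 2 h and 8.50 and 10.12 at 16 h, 3.08-fold higher, and with Trib3 it was 1 of 2 called among 45 insulin and IGF signalling genes. In TGF-beta signalling Tgfb2 and Fst were the 2 called of 54. Among Wnt and Notch genes the Wnt inhibitor gene Wif1 was the 1 called of 56, lower at 8.88 and 7.74.

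Channels and calcium proteins changed gene by gene. The nicotinic receptor gene Chrna7 had 4.31 and 6.50 (4.57-fold higher, vehicle at control level). Potassium channel genes Kcnma1 (6.90 and 8.01), Kcnk2 (4.95 and 6.05) and Kcnh1 (5.54 and 6.61) were the 3 called of 74, and the irritant-gated channel gene Trpa1 (5.81 and 7.23) was higher. Against the 2 h vehicle array Kcnma1 (0.81), Kcnk2 (0.87) and Kcnh1 (0.88) were short of 2-fold, while Trpa1 (1.51) was past it. Cacna1a, a voltage-gated calcium channel gene, was lower (6.90 and 5.62), although its 16 h vehicle signal was itself 0.96 below that of 2 h. Of 57 calcium-binding and transport genes the kinase genes Camk2d (4.93 and 6.94) and Camk4 (7.06 and 8.53), Mcu and the calcineurin regulator gene Rcan1 (7.69 and 8.83) were higher. Scgn, the sodium-calcium exchanger gene Slc8a2 (6.28 and 4.94) and Vsnl1 (4.95 and 3.69, at control level with forskolin) were lower.

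Genes of the cell surface, matrix and cytoskeleton closed the picture. Besides Plat, the fibrinogen chain gene Fgb (4.94 and 7.35), the collagenase gene Mmp13 (3.79 and 6.19, vehicle at control level) and the proprotein convertase gene Pcsk5 (3.81 and 5.59, likewise) were higher, which made 4 of 72 protease and coagulation genes, with 0 lower. Fgb had 5.25 and 4.89 at 2 h, so its difference was a late one. The integrin gene Itga3 (7.49 and 9.26), Alcam (5.30 and 6.52) and the guidance ligand genes Sema3a (4.72 and 6.16) and Sema3c (4.30 and 5.90, from control level) were higher. Among 76 axon guidance genes 4 were higher and 2 lower. Lower genes of this list and of others included the growth cone protein gene Dpysl3 (5.82 and 3.86, at control level with forskolin), the adhesion gene Nrcam (6.21 and 4.93), Tenm3 (5.67 and 4.16, likewise), the netrin receptor gene Unc5c (6.07 and 4.83) and the microtubule protein gene Dcx (7.56 and 6.13). Vil1, which bundles actin in microvilli, was lower too (6.995 and 5.44), and Arhgap24, which switches off Rac, higher (5.88 and 7.93).

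Of 52 measured immediate-early and stress transcription factors 5 were higher and 2 lower, Myc and Klf10 (7.33 and 6.17). The highest of them, the ETS factor gene Elk3, had 5.82 and 5.13 at 2 h and 5.11 and 7.49 at 16 h, so it was higher with forskolin at the late time alone, and against the 2 h vehicle array its late signal was higher by 1.67. The myelin protein gene Pmp22 (6.30 and 8.44, 4.42-fold) and Tmem163, a zinc-binding protein of vesicles (7.57 and 9.72, 4.46-fold), were also among the highest. Immune genes gave no common direction, with the cytokine gene Il18 higher (3.63 and 5.74, vehicle at control level) and the chemokine gene Cxcl10 lower (5.63 and 4.12, forskolin at control level) among 57 measured. The clock genes Cry2 (7.75 and 8.83) and Nfil3 (6.01 and 7.01) were higher, and at 2 h both had reached higher signals with forskolin, 10.28 and 8.01.

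The values nearest the threshold were a difference of 1.0008 for the last gene called higher and of 0.9976 for the first one not called, and -1.0014 and -0.9988 on the lower side. A gene could pass the filter through a forskolin array alone. This held for 303 kept genes, 61 of them called higher, while 22 lower genes passed through vehicle arrays alone.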

How the data were processed

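The deposited tables hold gene-level log2 signals of 29214 probe sets on 4 arrays, which the authors computed by RMA (per the file headers) in Affymetrix Expression Console 1.1.1 (per the submitters' processing notes). The authors also deposited linear intensities of the same signals, which are 2 raised to the log2 value within rounding. Ratio columns were not used. RMA normalizes the arrays to a common distribution, so a shift of most genes in one direction would not be seen.

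Symbols (20411 probe sets) were updated with RefSeq names of GRCr8: 14570 matched by accession, 2834 by symbol, 1127 by synonym, and 1880 kept the deposited symbol. For 1026 genes with several probe sets, that of highest mean signal was taken. Genes were kept if their highest signal over the 4 arrays reached 4.8539, the median of that quantity. Differences are forskolin minus vehicle. There is no test, since each group is 1 array. The members, 50 gene lists and thresholds were chosen with earlier results of these data known.

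Genes named are the 70 highest and 70 lowest kept genes with a known symbol, up to 8 members of each list with the largest difference, and a fixed set of beta-cell, cAMP and reference genes. Cell type markers and genes said to be chosen after their values were seen stand outside it, as do the remaining beta-cell markers. A few genes that meet this rule are left out of the text. Promoters are RefSeq's, GRCr8, 300 bases each. Calculations used Python 3.11.15, pandas 2.3.3 and numpy 2.4.6, and normalization alternatives limma 3.58.1 in R 4.3.3. The calling step was run on simulated data with planted differences above the threshold and noise set from the vehicle arrays. That run checks the code and not the precision of the calls. The number of arrays limits the precision.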

Additional observations from a re-analysis of the deposited data

Results flagged for a closer look

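Slc26a2 was 2-fold apart in opposite directions at the 2 times. At 2 h it had 8.89 with vehicle and 10.27 with forskolin, and at 16 h 8.60 and 7.31, a difference of -1.29. Each direction rests on 1 array a side, and whether the times differ was not tested.

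Among the probe sets without a gene symbol, which the comparisons by gene leave out, 1703 of 7251 reached the filter. Forskolin at 16 h was past 2-fold higher in 26 of them and past 2-fold lower in 57. By their deposited descriptions, 9 of 54 non-coding RNA entries other than snoRNAs and microRNAs were lower and 0 higher, and 1 of 165 snoRNA entries was lower. The 60 microRNA entries had no call, with a median difference of -0.14. Among negative controls above the filter the share past 2-fold was 6.47% higher (20 of 309) and 34 of 309 lower.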

How the results depend on the processing

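No paired analysis was possible because each group is 1 array, and for the same reason no replicate could be left out. The counts of 217 higher and 188 lower genes became 716 and 632 at 1.5-fold and 69 and 34 at 3-fold. Under a stricter filter they were 153 and 121. Under no filter, a filter on the arrays of 16 h, cyclic loess, further quantile normalization, the median set to 0, the mean of probe sets and the deposited linear intensities, the counts stayed between 203 and 247 higher and between 182 and 206 lower. Alternatives chosen after seeing the data gave 204 and 215 against the mean of both vehicle arrays, and 166 and 142 with both signals above the upper quartile of the negative controls. Of 427 named genes, none changed direction among those called, under cyclic loess, quantile normalization, the mean of probe sets or the mean of both vehicles, and 222, 219, 221 and 211 of 226 called ones were again past 2-fold. The medians of the kept members of 48 lists moved by at most 0.08 under loess, quantile normalization and the mean of probe sets, with 2, 4 and 1 changing sign. The filter moved them more, by up to 0.82 with 7 changing sign under no filter, by up to 0.24 with 4 changing sign under the stricter filter, and by up to 0.15 with 1 changing sign under the filter on the arrays of 16 h. Against the mean of both vehicles, 11 of 48 changed sign, all of them within 0.1 of 0. Signals near background limit the folds of dim genes.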
